A study of Mus musculus with 8 samples.

Results

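The thrombospondin family of the mouse was followed in left ventricles of hypertensive and control hearts. The 5 genes were taken by symbol (Thbs1, Thbs2, Thbs3, Thbs4 and Comp, which encodes cartilage oligomeric matrix protein, also called thrombospondin 5) from a table of 55679 genes, and each symbol matched 1 row. The libraries came from male wild-type (WT) C57BL/6J mice that carried osmotic mini-pumps under the skin for 7 days. The control group (n = 4) received saline, and the ANG II group (n = 4) received angiotensin II, a vasoconstrictor peptide, at a pressor dose of 1500 ng/kg/min. The age of the mice was not given in the sources used here. Per the labels, each heart was flushed with 20 ml of saline to clear blood before the left ventricle was removed. The replicates are numbered 1 to 4 in each group. The labels do not say whether a library was 1 animal or a pool, and the methods of the study name more biological replicates per group than the libraries analysed here, so the p-values measure the spread between these libraries.

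Thrombospondins are secreted, calcium-binding glycoproteins of the extracellular matrix that steer how cells meet the matrix rather than building its fibres. Thbs1 and Thbs2 assemble as trimers and carry the type 1 repeats that bind CD36 and, in Thbs1, act on latent transforming growth factor β (TGF-β). Thbs3, Thbs4 and Comp assemble as pentamers and lack these repeats. Thrombospondins are known to be produced in the loaded and injured heart, where Thbs4 has also been linked to the endoplasmic reticulum (ER) stress sensor Atf6, whereas Comp is best known from cartilage and tendon.

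All 5 genes were higher after ANG II infusion, and for each of them the lowest ANG II library lay above the highest control library. Levels are given as FPKM, which are fragments scaled by transcript length and by the depth of the library. A gene was called when the adjusted p of limma on log2(FPKM + 1) was under 0.05 and the log2 fold change was above 0.5 in size. Of the 19364 genes tested, 14.0% were called higher and 1.41% lower. Values without overlap between the groups, were found with ANG II higher in 28.7% of the tested genes and with ANG II lower in 5.06%, so the lack of overlap on its own was common in these data. By size of the log2 fold change among all tested genes, Thbs4 ranked 6, Comp 41, Thbs1 71, Thbs2 145 and Thbs3 377. The median log2 fold change of all tested genes was 0.147, and the 5 genes had values between 1.33 and 3.98, or between 1.19 and 3.83 after that median was subtracted. In RNA from whole ventricle, a change in the number of cells of a type and a change in RNA per cell cannot be told apart.

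**Figure D1:**
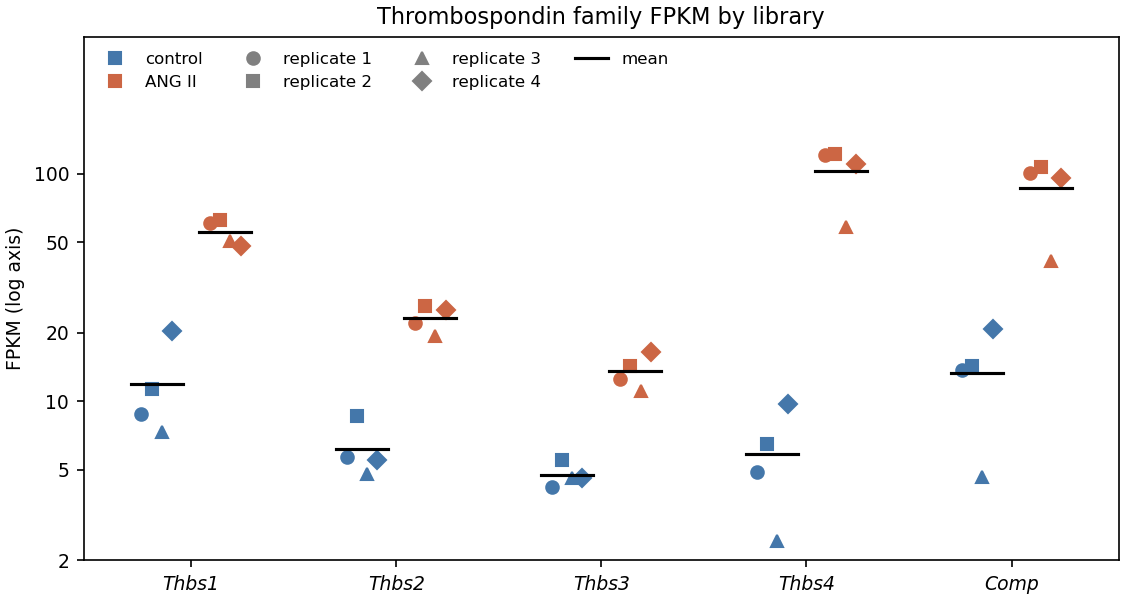
FPKM of the 5 genes in each library, on a log axis, with controls in blue, ANG II libraries in orange, marker shapes for the replicate number and black bars for the mean of 4 libraries. No control value reaches an ANG II value in any of the 5 genes, and the triangles (replicate 3) are lowest for Thbs2, Thbs4 and Comp in both groups.

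The genes lie on 5 different chromosomes (GRCm38, GENCODE M21). Thbs1 spans chr2:118111876-118127133 on the plus strand, Thbs2 chr17:14665500-14694235 on the minus strand and Thbs3 chr3:89215180-89226837 on the plus strand. Thbs4 spans chr13:92751590-92794818 on the minus strand, and Comp spans chr8:70373558-70382066 on the plus strand.

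Upstream sequence is shown as a description of these separate loci. RefSeq promoter windows (GRCm38.p6) were at hand for Thbs2, Thbs3 and Thbs4, that is for 3 of the 5 genes; Thbs1 and Comp are named only. The 250 bases before each start are printed 5′ to 3′ on the strand of the gene. Capitals mark matches, on either strand, to any of the 7 motif words searched. The word TATAAA stands for a TATA box and CAGACA for a SMAD site. The word CATTCC stands for a TEAD site, CCACG for a part of the Atf6 element and GGGCGG for an SP1 site. The AP-1 site was searched as TGACTCA, and the CArG box by its name. The windows are chr17:14694263-14694512 (minus), chr3:89214930-89215179 (plus) and chr13:92794819-92795068 (minus).
Thbs2: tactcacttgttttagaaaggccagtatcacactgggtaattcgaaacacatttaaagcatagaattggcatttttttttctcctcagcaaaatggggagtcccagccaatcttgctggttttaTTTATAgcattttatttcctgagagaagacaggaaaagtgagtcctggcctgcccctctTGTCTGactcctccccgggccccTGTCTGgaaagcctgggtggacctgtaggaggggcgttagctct
Thbs3: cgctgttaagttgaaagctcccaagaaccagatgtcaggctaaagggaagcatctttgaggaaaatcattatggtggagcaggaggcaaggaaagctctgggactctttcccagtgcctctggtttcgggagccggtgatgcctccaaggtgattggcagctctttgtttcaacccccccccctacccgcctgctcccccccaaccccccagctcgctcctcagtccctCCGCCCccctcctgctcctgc
Thbs4: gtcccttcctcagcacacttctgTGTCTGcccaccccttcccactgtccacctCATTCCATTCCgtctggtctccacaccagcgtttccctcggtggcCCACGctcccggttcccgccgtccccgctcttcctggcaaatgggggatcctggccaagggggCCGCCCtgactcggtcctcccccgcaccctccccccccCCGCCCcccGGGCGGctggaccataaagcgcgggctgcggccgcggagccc

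The Thbs2 window held the TATA word from -126 to -121 and the SMAD word at -67 to -62 and at -44 to -39, counted from the base before the start as -1. In the Thbs3 window 1 SP1 word stood at -21 to -16. The Thbs4 window, with 70.8% G and C the richest of the 3, held the SMAD word at -227 to -222, a pair of TEAD words that overlap by their end base, from -197 to -192 and from -192 to -187, the Atf6 part at -152 to -148 and 3 SP1 words. Among all 32851 mouse windows of 300 bases, 13.6% held the TATA word, 21.0% the SMAD word, 14.7% the TEAD word, 32.8% the Atf6 part and 35.7% the SP1 word, while 5.20% held the AP-1 word and 1.63% the CArG box, of which none of the 3 printed stretches had a match. These matches describe the letters of the windows and were not tested for any relation to the expression values.

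Thbs4 showed the largest rise of the family. Its FPKM values were 4.88, 6.46, 2.43 and 9.70 in control libraries 1 to 4, and 121, 123, 58.4 and 110 in ANG II libraries 1 to 4. Every ANG II library was at least 6.02 times the highest control, although ANG II library 3 held about 0.495 times the mean of the other 3. The mean went from 5.87 ± 3.04 to 103 ± 30.3 FPKM (SD, n = 4 each), a 17.6-fold difference. The log2 fold change was 3.98 with a standard error of 0.339 (limma, adjusted p = 3.71e-05). The fragments behind these values, read from the steps of the FPKM values, were 73 to 269 per control library and 1600 to 3542 per ANG II library. By its mean level Thbs4 stood at percentile 58.2 of the tested genes in control ventricles and at percentile 95.9 after ANG II.

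Comp, the other pentamer that binds fibrillar collagens, followed with a wider spread. The control libraries 1 to 4 gave 13.7, 14.3, 4.64 and 20.8 FPKM, and the ANG II libraries gave 101, 107, 41.5 and 95.6 FPKM. Library 3 was the lowest of its group on both sides, and the lowest ANG II value was still 1.99 times the highest control value. The means were 13.4 ± 6.65 and 86.3 ± 30.2 FPKM (SD, n = 4 each), 6.46-fold apart, and the log2 fold change of 2.67 had a standard error of 0.415, the largest of the 5 (limma, adjusted p = 9.62e-04). Fragments numbered 77 to 319 per control library and 629 to 1715 per ANG II library.

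Thbs1, the main activator of latent TGF-β in the family, was read at 8.78, 11.3, 7.35 and 20.3 FPKM in control libraries 1 to 4. In ANG II libraries 1 to 4 it stood at 60.4, 62.4, 50.5 and 47.9 FPKM. The ANG II values lay close together, with a highest value 1.30 times the lowest, whereas the controls spread over 2.76 times because control library 4 was 2.21 times the mean of the other 3. Mean levels of 11.9 ± 5.80 and 55.3 ± 7.19 FPKM (SD, n = 4 each) differed 4.63-fold, with a log2 fold change of 2.21 and a standard error of 0.247 (limma, adjusted p = 1.56e-04). About 396 to 1009 fragments per control library and 2485 to 3240 per ANG II library stood behind these values. A noncoding RNA on the opposite strand, Gm29233, overlaps 3.43% of the exon bases of Thbs1, and the use of strand was not given in the sources used here.

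Thbs2, the second trimer and an inhibitor of vessel growth, showed 5.68, 8.56, 4.80 and 5.53 FPKM in control libraries 1 to 4. After ANG II the values were 22.2, 26.3, 19.4 and 25.2 FPKM. The highest value was 1.78 times the lowest among controls and 1.35 times after ANG II. The lowest ANG II value was 2.27 times the highest control value. The means of 6.15 ± 1.66 and 23.3 ± 3.10 FPKM (SD, n = 4 each) differed 3.79-fold, and the log2 fold change was 1.78 with a standard error of 0.153 (limma, adjusted p = 3.86e-05).

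Thbs3, a pentamer best described in the skeleton, had the smallest rise and the smallest spread among controls. It was at 4.20, 5.51, 4.60 and 4.59 FPKM in control libraries 1 to 4 and at 12.5, 14.2, 11.04 and 16.4 FPKM in ANG II libraries 1 to 4. Its coefficient of variation was 11.8% among controls, against 27.0% to 51.9% for the other 4 genes. The means of 4.73 ± 0.557 and 13.5 ± 2.32 FPKM (SD, n = 4 each) were 2.86-fold apart, with a log2 fold change of 1.33 and a standard error of 0.122 (limma, adjusted p = 5.25e-05). The gene Mtx1, an import factor of the outer mitochondrial membrane, runs on the opposite strand across Thbs3 and shares 6.59% of its exon bases. Mtx1 itself was at 8.69 ± 0.507 FPKM in controls and 8.99 ± 0.506 FPKM after ANG II and was not called (adjusted p = 0.689).

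Each of the 5 genes gave p = 0.0286 in an exact two-sided permutation test of its FPKM values over the 70 allocations of 8 libraries, which is the smallest value that this design allows.

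**Figure D2:**
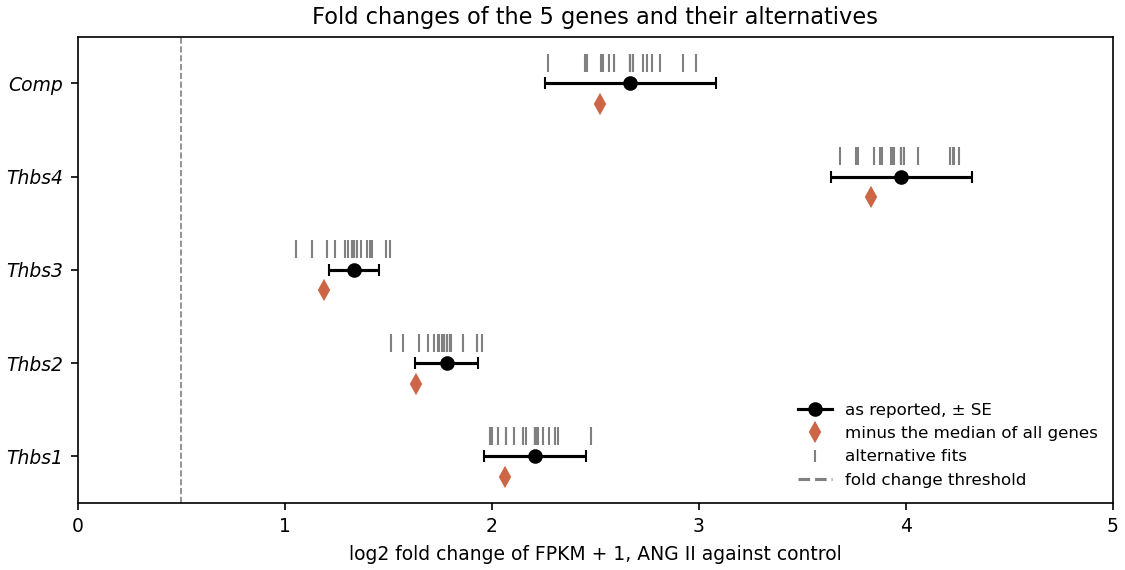
Log2 fold change of FPKM + 1 (x axis), ANG II against control, for each of the 5 genes, with the standard error as bars, the value minus the median of all tested genes as orange diamonds and the values of the alternative fits as grey ticks. Every tick lies right of the dashed threshold of 0.5, from 1.05 for Thbs3 to 4.26 for Thbs4.

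The make-up of the family changed. The summed FPKM of the 5 genes went from 42.0 ± 15.6 in controls to 281 ± 68.8 after ANG II (SD, n = 4 each), a 6.70-fold difference. Thbs4 made up 13.3% ± 2.38 of this sum in controls (range 10.2% to 15.9%) and 36.2% ± 2.65 after ANG II (range 32.3% to 38.2%), so that its ranges did not overlap. The share of Thbs3 went from 12.5% ± 4.92 to 4.97% ± 1.03, also without overlap. The other 3 shares overlapped between the groups: Thbs1 had 28.1% ± 4.73 and 20.5% ± 5.12, Thbs2 15.8% ± 4.90 and 8.54% ± 1.60, and Comp 30.3% ± 7.61 and 29.8% ± 4.59. The trimers Thbs1 and Thbs2 together held 43.8% ± 5.13 in controls and 29.0% ± 6.47 after ANG II, with the pentamers holding the rest. These shares are descriptions and were not tested.

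**Figure D3:**
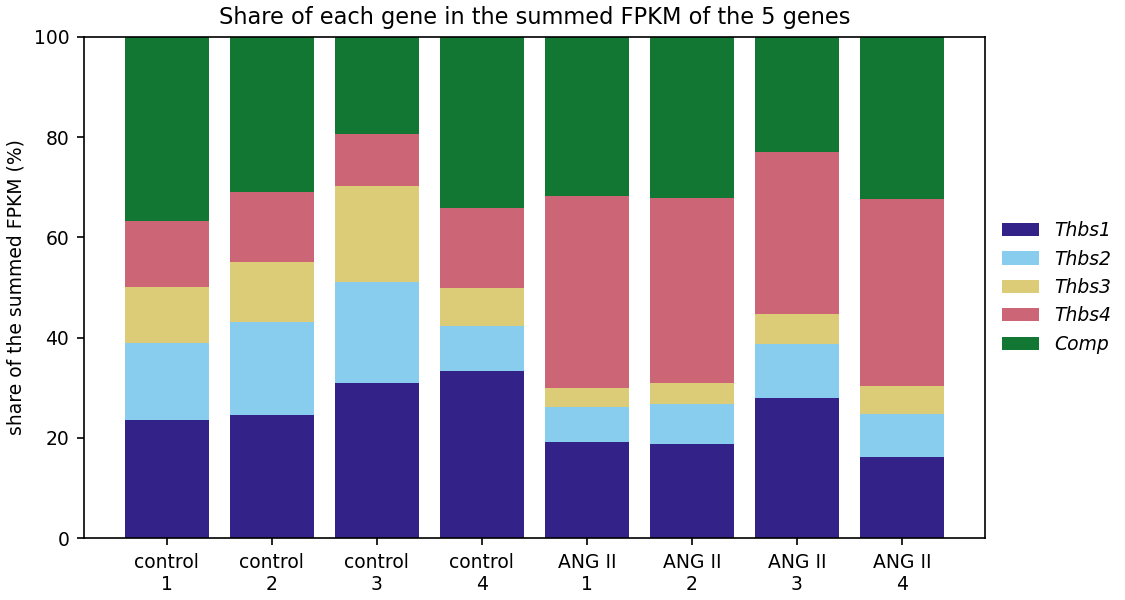
Share of each gene in the summed FPKM of the 5 genes (y axis, percent) in each of the 8 libraries. The Thbs4 segment covers 10.2% to 15.9% of the bar in controls and 32.3% to 38.2% in ANG II libraries.

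The ratio of Thbs4 to Comp changed with the treatment. On the log2 scale it was -1.17 ± 0.232 in controls (range -1.48 to -0.93) and 0.29 ± 0.139 after ANG II (range 0.19 to 0.49). Comp was thus above Thbs4 in every control library and below it in every ANG II library. The log2 ratio of Thbs4 to Thbs1 moved in the same sense, from -1.08 ± 0.362 to 0.85 ± 0.438, also without overlap. The log2 ratio of Comp to Thbs1 was 0.09 ± 0.557 in controls and 0.56 ± 0.572 after ANG II, and its ranges overlapped.

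In controls the mean FPKM levels fell in the order Comp, Thbs1, Thbs2, Thbs4 and Thbs3, and each neighbouring pair in this order had overlapping ranges. After ANG II the order was Thbs4, Comp, Thbs1, Thbs2 and Thbs3. Here Thbs1 lay above Thbs2, and Thbs2 above Thbs3, without overlap, while the ranges of Thbs4, Comp and Thbs1 overlapped. FPKM values in these data are scaled by the mean length of all annotated transcripts of a gene, short ones included, and that mean was 1366 bases for Thbs3 and 1002 bases for Comp against longest transcripts of 4034 and 2416 bases. With the longest transcript as the length, Thbs1 came before Comp in controls and the order after ANG II did not change. The share of Thbs4 was then 14.9% ± 2.73 and 39.7% ± 3.34, again without overlap. The ratio of 2 group means of 1 gene does not depend on the length.

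The libraries of 1 group were not equally high. Library 3 was the lowest control for Thbs1, Thbs2, Thbs4 and Comp and the lowest ANG II library for Thbs2, Thbs3, Thbs4 and Comp. Control library 3 held 0.347 times the mean of the other 3 controls for Thbs4 and 0.285 times for Comp, and ANG II library 3 held 0.495 and 0.410 times. Thbs1, Thbs2 and Thbs3 stood at 0.546, 0.729 and 0.963 times in control library 3 and at 0.887, 0.791 and 0.769 times in ANG II library 3. Over all tested genes, library 3 did not stand apart, since the root mean square deviation from the group mean was 0.197 and 0.205 for the libraries numbered 3 and 0.190 to 0.209 for all 8. Whether the shared number pairs the libraries was not settled by these data. When both libraries numbered 3 were left out, a choice made after seeing the data, the log2 fold changes were 3.93 for Thbs4 and 2.59 for Comp.

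The 9 fibroblast markers were read in the same libraries. In ANG II library 3 they stood at 0.729 to 1.26 times the mean of the other 3 libraries, and 2 of the 9, Mfap5 at 0.729 times and Tcf21 at 0.877 times, were lowest there. Pdgfra, a receptor that marks cardiac fibroblasts, was at 27.03, 28.03, 34.3 and 36.1 FPKM in ANG II libraries 1 to 4, and Dcn (decorin) was at 513, 420.5, 529 and 495 FPKM. In control library 3 the markers stood at 0.598 to 1.12 times the other controls, and 8 of the 9 were lowest there, against 0.285 times for Comp. The atrial light chain Myl7, looked up after the values of library 3 were seen, was at 19.8, 21.1, 0.205 and 6.76 FPKM in controls and at 51.1, 28.2, 89.6 and 21.7 FPKM after ANG II, lowest in control library 3 and highest in ANG II library 3. The part that the dissection or the cell make-up has in these differences between libraries was not tested.

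**Figure D4:**
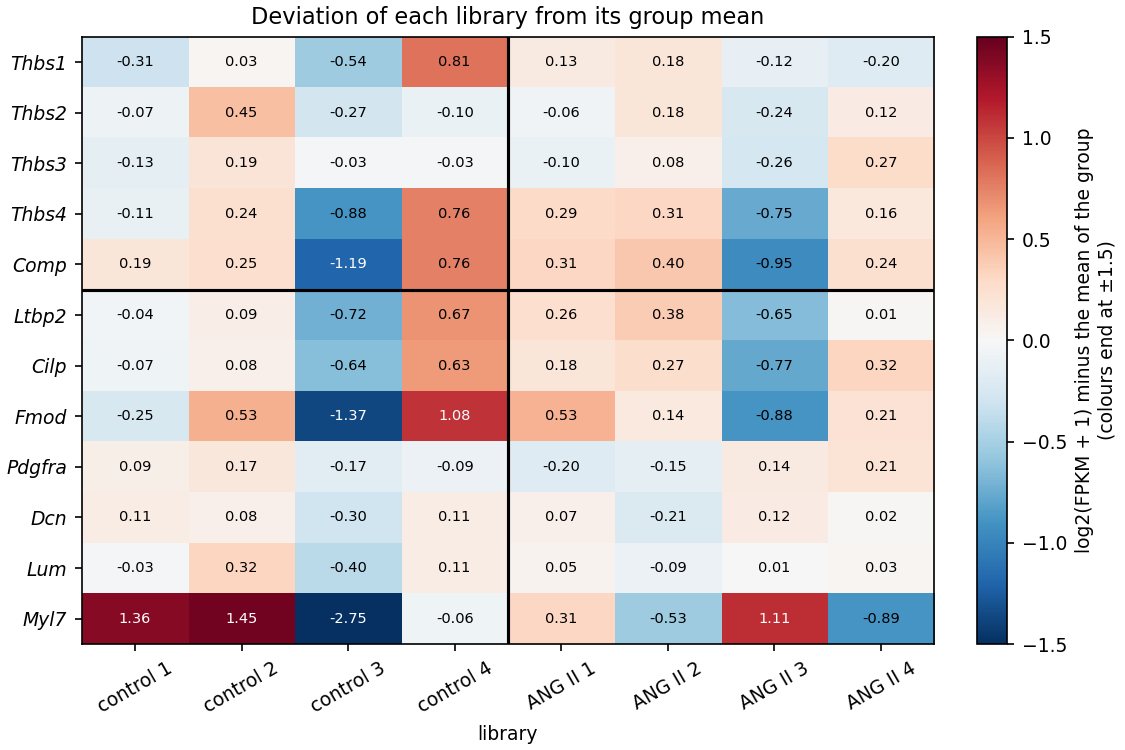
Deviation of log2(FPKM + 1) in each library (columns) from the mean of its group, for the 5 genes above the line and for 7 other genes below it, with the value in each cell and colours that end at 1.5 in either direction. Thbs4, Comp, Ltbp2, Cilp and Fmod are low in both libraries numbered 3, and Dcn and Lum are lowest in control library 3 but not in ANG II library 3. Ltbp2, Cilp and Fmod are among the genes with a course most like that of Thbs4 or Comp in these same libraries.

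The genes with the most similar course differed from member to member. Likeness was taken as the smallest root mean square difference over the 8 libraries of log2(FPKM + 1) minus the control mean, among named genes whose mean was 1 FPKM or more. For Thbs4 the nearest were Ltbp2, a latent TGF-β binding protein family member, at 0.196 and Cilp, a cartilage intermediate layer protein, at 0.207. Ltbp2 went from 2.80 ± 1.46 to 48.9 ± 14.1 FPKM and Cilp from 7.21 ± 2.95 to 109 ± 32.4 FPKM (SD, n = 4 each).

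Comp had no equally close partner, with Pamr1 at 0.361, the collagen-binding proteoglycan Fmod (fibromodulin) at 0.373 and Mfap4, a microfibril-associated glycoprotein, at 0.420. Fmod gave 4.85, 9.04, 1.69 and 13.7 FPKM in control libraries 1 to 4 and 47.7, 36.4, 17.4 and 38.2 FPKM in ANG II libraries 1 to 4, lowest in library 3 of each group like Comp. Because Fmod was picked for its likeness to Comp over these libraries, the shared low library is partly a result of that choice. Among the genes near to Thbs1 were the proteoglycan Bgn at 0.242 and Mgp, the matrix Gla protein that limits calcification, at 0.244. The genes nearest to Thbs2 were Igfbp7 at 0.148, Tgfb3 at 0.156 and the lysyl oxidase Loxl1 at 0.157. Thbs3 had the closest partners, with Pmepa1, a TGF-β response gene, at 0.0852, Tmem273 at 0.0920 and Fxyd6 at 0.108. Within the family the nearest pair was Thbs2 and Thbs3 at 0.348, and the most distant was Thbs3 and Thbs4 at 1.93. Likeness is a description over these 8 libraries, and on this scale it depends in large part on how close the fold changes of the genes are.

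Protein-coding genes that overlap a member or lie nearest to it were read for comparison, and those named here were not called. Crtc1, on the opposite strand, ends 289 bases from the end of Comp and was at 4.22 ± 0.388 and 5.24 ± 0.656 FPKM (adjusted p = 0.0877). Smoc2, the neighbour of Thbs2 and itself a matricellular gene, was at 49.1 ± 6.81 and 53.0 ± 3.92 FPKM (adjusted p = 0.408). Mtx3 and Serinc5, on either side of Thbs4, were at log2 fold changes of -0.09 and 0.43. Fsip1, next to Thbs1, and Wdr27, next to Thbs2, were below the level needed for a test.

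The genes that work with thrombospondins were read from lists by function. Each list's counts are set against the 14.0% of tested genes called higher and the 1.41% called lower. Of 14 receptors, 7 were higher, 0 lower and 7 not called, and the median log2 fold change was 0.48. The called receptors with the largest changes were Sdc1 (syndecan 1), from 4.92 ± 0.771 to 14.1 ± 1.90 FPKM, the integrin subunit Itgb3, from 0.757 ± 0.114 to 3.13 ± 0.366 FPKM, the endocytic receptor Lrp1, from 69.7 ± 7.17 to 154 ± 13.1 FPKM, and the integrin subunit Itga4, from 1.79 ± 0.713 to 4.43 ± 1.04 FPKM. Under median-of-ratios scaling 5 receptors were called higher, without Itgb1 and Itga5. The receptors best known for Thbs1, Cd36 and Cd47, were not called. Cd36 was at 816 ± 31.5 and 817 ± 77.2 FPKM (adjusted p = 0.987), and Cd47 was at 41.7 ± 2.09 and 54.9 ± 4.25 FPKM, a log2 fold change of 0.39 that was under the threshold of size (adjusted p = 0.00154). Cacna2d1, the calcium channel subunit that binds thrombospondins on neurons, was at 78.6 ± 4.27 and 65.0 ± 3.29 FPKM, also under the threshold of size.

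Of 17 genes of the TGF-β axis, 14 were higher, 0 lower and 3 not called. The median of their log2 fold changes was 0.98. The matricellular gene Postn (periostin) went from 33.2 ± 8.28 to 667 ± 141 FPKM and Ctgf, encoding connective tissue growth factor, from 33.8 ± 6.44 to 135 ± 27.6 FPKM (SD, n = 4 each). All 3 ligands, Tgfb1, Tgfb2 and Tgfb3, and the receptors Tgfbr1 and Tgfbr2 were called higher, and Ltbp1, Ltbp4 and Tgfbr3 were not called.

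All 13 tested matrix partners, the collagens and glycoproteins to which thrombospondins and Comp bind or which lie beside them in the matrix, were higher, with a median log2 fold change of 2.10. Fn1 (fibronectin) went from 15.6 ± 1.98 to 205 ± 21.5 FPKM, Col1a1 from 64.7 ± 17.2 to 608 ± 52.2 FPKM, Col12a1, a collagen on the surface of fibrils, from 0.819 ± 0.479 to 14.2 ± 5.10 FPKM, and Sparc, the most abundant of the list, from 340.3 ± 51.3 to 1226 ± 150 FPKM. Acan (aggrecan) was called at a low level, 0.128 ± 0.0796 and 0.603 ± 0.132 FPKM, and lost its call under other scalings. Matn3 and Col9a1, cartilage partners of Comp, were below the level needed for a test.

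Among 12 proteinases and inhibitors, 7 were higher, 0 lower and 5 not called, with a median log2 fold change of 0.94. Timp1, an inhibitor of metalloproteinases, went from 2.19 ± 0.307 to 53.3 ± 24.1 FPKM, and the metalloproteinases Mmp14 and Mmp2 went from 15.3 ± 1.41 to 70.6 ± 5.88 FPKM and from 53.0 ± 7.52 to 204 ± 38.1 FPKM. Among the enzymes known to cut Comp, Adamts4 was at 0.943 ± 0.244 and 3.67 ± 1.17 FPKM and was called higher. Adamts12 was at 1.13, 1.75, 0.856 and 0.649 FPKM in control libraries 1 to 4 and at 5.35, 5.66, 5.63 and 4.47 FPKM in ANG II libraries 1 to 4 and was called higher, whereas Adamts7 was at 5.86 ± 1.44 and 5.01 ± 0.431 FPKM and was not called (adjusted p = 0.410). Htra1, a serine protease, was at 68.7 ± 4.47 and 49.3 ± 2.36 FPKM and was not called here, but was called lower under median-of-ratios scaling and quantile normalization, while Timp3 lost its call there.

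The ER list, with Atf6 and the chaperones of its program, held 0 higher, 2 lower and 16 not called of 18 genes, and its median log2 fold change was -0.04 against 0.147 for all tested genes. Hspa5, the main ER chaperone, fell from 666 ± 89.0 to 427 ± 20.2 FPKM (limma, adjusted p = 7.41e-04), and Manf, a secreted ER stress factor, from 41.3 ± 8.82 to 26.6 ± 3.31 FPKM (adjusted p = 0.0123). Atf6 was at 39.6 ± 3.54 and 43.3 ± 1.92 FPKM (adjusted p = 0.185). Under median-of-ratios scaling and quantile normalization Hyou1 was also called lower.

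In the nitric oxide, cGMP and vessel growth list, the signalling that Thbs1 restrains through Cd47, 4 of 9 genes were higher, 0 lower and 5 not called. The 4 were the guanylate cyclase subunits Gucy1b1 (13.3 ± 1.53 to 22.4 ± 2.42 FPKM) and Gucy1a1 (11.01 ± 1.99 to 17.3 ± 1.76 FPKM), the actin regulator Vasp and the kinase Prkg1. Their changes were small, between 0.57 and 0.71 on the log2 scale, and under median-of-ratios scaling 0 of the 9 were called. Vegfa, the most abundant of the list, was at 425 ± 100 and 347 ± 61.9 FPKM (adjusted p = 0.275).

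**Figure D5:**
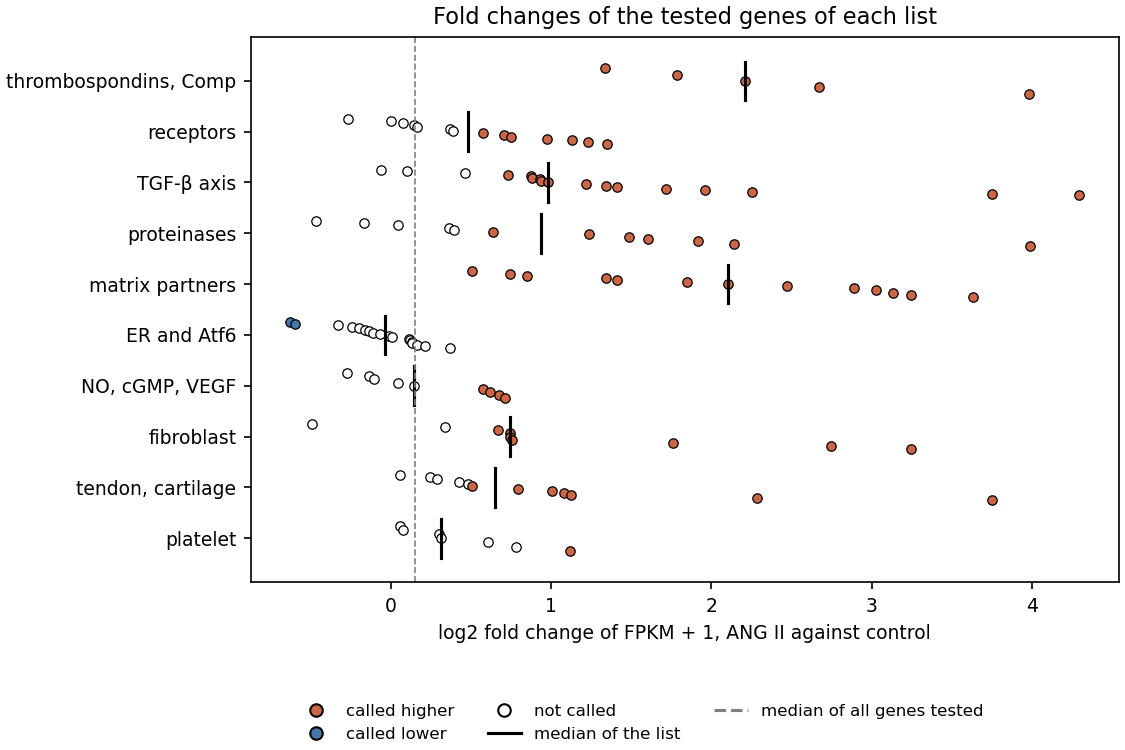
Log2 fold change of FPKM + 1 (x axis), ANG II against control, for the tested genes of each list (rows, 1 point per gene), filled where the gene was called, with a bar at the median of the list and a dashed line at the median of all tested genes, 0.147. The matrix partners reach a median of 2.10 with all 13 points filled, and the ER and Atf6 list lies around -0.04 with 2 genes called lower.

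Markers of the cell types that whole ventricle could hold were read as lists too. Of 9 fibroblast markers 7 were higher, with a median of 0.74 on the log2 scale and a summed level of 1090 to 1439 FPKM in controls and 1910 to 2218 FPKM after ANG II. Mfap5 and Lum rose most beside Col1a1, and Pdgfra went from 19.3 ± 2.20 to 31.4 ± 4.52 FPKM, 1.63-fold, but lost its call under median-of-ratios scaling and quantile normalization. Gsn was at 819 ± 97.4 and 587 ± 122 FPKM and was called lower under those scalings. Of 12 tested tendon and cartilage markers 7 were higher, with Cilp and Fmod in the lead and with Scx, the tendon transcription factor, at 6.22 ± 1.14 and 14.0 ± 4.69 FPKM. Of the cartilage markers, Sox9, a transcription factor, was called higher (0.687 ± 0.235 to 2.70 ± 1.24 FPKM), and Chad was at 0.934 to 5.6 FPKM in controls and 2.01 to 4.44 FPKM after ANG II. Col2a1, the main cartilage collagen, was near 0 at 0.109 ± 0.172 and 0.354 ± 0.223 FPKM, and Matn1 was at 0.00 in all controls and 0.00826 ± 0.0165 FPKM after ANG II. When both libraries numbered 3 were left out, 5 of the tendon and cartilage markers were called, and 5 were called under median-of-ratios scaling or quantile normalization.

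Platelets store Thbs1 protein in their granules. Of 7 tested platelet markers 1, Pf4, was higher (19.5 ± 3.26 to 43.9 ± 9.99 FPKM), and Pf4 is also made by macrophages, of whose 10 markers all were higher, or 9 under median-of-ratios scaling and quantile normalization, where Cd14 lost its call. Itga2b was at 2.51, 11.6, 1.98 and 1.98 FPKM in ANG II libraries 1 to 4 and Ppbp at 1.46, 15.5, 1.95 and 0.751 FPKM, so that ANG II library 2 was high in both. Thbs1 in that library (62.4 FPKM) was close to that in ANG II library 1 (60.4 FPKM), and without ANG II library 2 its log2 fold change was 2.15. Of 8 endothelial markers 1 was higher and 0 lower, with a median of 0.18 on the log2 scale and a summed level of 494 to 534 FPKM in controls and 558 to 653 FPKM after ANG II. That call, of Pecam1, was lost under median-of-ratios scaling and quantile normalization. Of 8 smooth muscle markers 2 were higher and 0 lower, with a median of 0.14, and of 6 tested skeletal muscle markers 2 were higher and 0 lower, with a median of 0.10. Under median-of-ratios scaling Pdgfrb lost its call among the smooth muscle markers and Smtn was called lower, as was Ckm among the skeletal muscle markers. Of 9 cardiomyocyte markers 0 were higher and 2, Myh6 and Tnni3, lower, and 6 of the 9 were lower without overlap. Among all tested genes 1.41% were called lower and 5.06% were lower without overlap. Under median-of-ratios scaling 5 of the 9 markers were called lower, and under quantile normalization 1. After quantile normalization Myh6 and Tnni3 were not called, and Tnnt2, Actc1 and Myl3 were at log2 fold changes of 0.16, 0.13 and 0.10. The summed level of the 9 markers was 47619 to 48546 FPKM in controls and 35766 to 38464 FPKM after ANG II. Cardiomyocyte markers were abundant, as the tissue label calls for, with Myl2, the ventricular light chain, at 10947 ± 560 FPKM in controls and 7890 ± 745 FPKM after ANG II. Summed macrophage markers ranged from 184 to 225 FPKM in controls and from 472 to 636 FPKM after ANG II. The part that fibroblasts, macrophages, cardiomyocytes or other cells have in the rise of the 5 genes was not tested.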

How the data were processed

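Polyadenylated RNA of left ventricle was sequenced from both ends on an Illumina platform. The authors deposited 1 table of FPKM values with 1 column for each of the 8 libraries, which was used as it stood. Per the labels, HISAT, Bowtie2 and RSEM were among the tools. Versions, genome build, annotation and strand are not given in the sources used here. The steps of the deposited FPKM values fit the mean transcript length of GENCODE M21 and gave 14455658 to 16564852 fragments per library, with 97.6% to 99.3% of values under 60 fragments whole within 0.05.

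The 19364 genes whose mean reached 0.1 FPKM were tested with limma 3.58.1 in R 4.3.3 on log2(FPKM + 1) with a variance trend and Benjamini-Hochberg adjustment, after tests on simulated data. Fold changes on this scale understate those of low genes. Exact permutation tests used scipy 1.17.1. The replicate numbers were not used to pair the libraries in the reported fit. Alternatives were scaling, filter, pseudocount, voom on recovered fragments, a replicate block and leaving out libraries. The 5 genes and the lists were chosen with earlier results of these data known. Named were the 5 genes, up to 4 called genes with the largest change and the most abundant gene of each list, the 3 genes most like each member, and the neighbours. Other genes were chosen after their values were seen, among them Dcn, Tcf21, Sox9, Chad, Cd47, Cacna2d1, Acan, Adamts4, Adamts7, Htra1, Timp3, Atf6, Pdgfra, Gsn, Scx, Col2a1, Itga2b, Ppbp and Myl7. Some genes that this rule names are not reported here. The planned search of protein sequences was not run.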

Additional observations from a re-analysis of the deposited data

Results flagged for a closer look

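In the ANG II group the share of Comp in the summed FPKM of the 5 genes was 22.95% in library 3, far below the other 3 libraries; the gap to the nearest of them was 0.940 of the whole range of the group. Of the 20 groups of 4 examined in this way for the 5 genes, as levels and shares, this was the 1 that stood out, and chance alone marks about 1 in 20. The same library had the lowest Thbs2, Thbs3, Thbs4 and Comp levels of its group. The cause was not tested.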

How the results depend on the processing

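All 5 genes kept their direction and their call under 21 alternatives each, with log2 fold changes of 1.99 to 2.48 for Thbs1, 1.52 to 1.95 for Thbs2, 1.05 to 1.51 for Thbs3, 3.68 to 4.26 for Thbs4 and 2.27 to 2.99 for Comp, and the highest adjusted p was 0.00424 (Comp). With 1 library left out, the exact test could reach no lower than p = 0.0571, the value all 5 genes then had (range 0.0571 to 0.0571). The correlation of deviations between libraries of the same number was -0.03 to 0.06 over all tested genes. Low values over all genes cannot exclude a link in some of them. With the number as a replicate block, 2968 genes were called against 2981, and no call of the 5 genes changed. The adjusted p of Comp (limma) was then 7.17e-05, against 9.62e-04 without the block. Called genes numbered 795 at a fold change threshold of 1 and 6447 with none. At the threshold of 1, 3 receptors, 8 TGF-β axis genes, 0 ER genes and 0 nitric oxide list genes were called. That last list held 0 calls with median-of-ratios scaling, 1 after quantile normalization and 2 without mitochondrial and the top 10 genes. Of all calls, 2708 higher and 273 lower became 1670 and 804 with median-of-ratios scaling, 1413 and 986 after quantile normalization and 1976 and 536 without mitochondrial and the top 10 genes; the median of all genes went from 0.147 to 0.00, -0.04 and 0.05, and the causes were not tested. The difference in the share of Comp, ANG II minus control, was -0.49 percentage points, and between -4.11 and 1.80 with 1 library left out, so its sign is not settled. Depth limits Thbs4, Comp and Thbs3 most, with 73, 77 and 83 fragments in the lowest control library.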
